A study of Mus musculus with 6 samples.

Results

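NRF2 targets, glutathione enzymes and NADPH enzymes were described as 35 genes, chosen by gene symbol from the 18720 rows of each deposited table. All 35 were present. They were placed in 6 roles: 3 regulators, 5 genes of glutathione supply and recycling, 4 of the thioredoxin and peroxiredoxin system, 4 of NADPH supply through the pentose phosphate pathway, 10 of glutathione conjugation, and 9 other detoxification and stress genes. The RNA came from livers of male C57BL/6 mice that were 1 year old at the start. Every mouse ate a high-fat diet, abbreviated HFD, and was injected intraperitoneally for 12 weeks, 2 times a week. The R159 group (3 libraries) received R159 (a code name, with no further description in the labels), and the control group (3 libraries) received vehicle. No group on another diet, no untreated group and no other dose is compared here. Whether the libraries come from different animals is not stated, and the p-values therefore reflect only how far these 6 samples spread, which may be technical.

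NRF2, encoded by Nfe2l2, is a transcription factor that binds antioxidant response elements in DNA as a partner of small MAF proteins. KEAP1 normally marks it for degradation, and electrophiles, oxidants or the autophagy receptor p62 (Sqstm1) can release it from KEAP1. Its targets make and recycle glutathione, reduce thioredoxin, supply NADPH and attach glutathione or other groups to foreign compounds, and in hepatocytes these are among the main defences against reactive metabolites.

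Antioxidant response elements were looked for as the letters TGACNNNGC, on both strands, in promoter windows of 300 bases (250 before to 50 after each RefSeq start site, build GRCm38.p6; the submitters' notes name mm39 for the expression files). A window was found for 31 of the 35 genes, and Gclc, Gsr, Gsta4 and Hmox1 were not matched. The letters occurred in a window of 10 of these 31 genes (32.3%), of 1929 of 11572 tested genes with a window (16.7%), and of 3781 of 27025 genes in the whole table (14%). Among the members described below as lower in R159, 4 of 11 with a window held them, and among the others 6 of 20. The stretches below are shown because they belong to lower members (Txnrd1, Abcc4, Pgd and Srxn1) or to members that were not lower (Prdx1 and Gclm), so that the same letters can be seen in both. Capitals mark the match, and each stretch is written 5′ to 3′ on the strand of its gene. The Txnrd1 stretch is chr10:82858956-82859205 (plus strand), Abcc4 chr14:118706220-118706469 (minus), Prdx1 chr4:116685349-116685598 (plus), and Gclm chr3:122245307-122245556 (plus); each ends at the base before the start site. For Pgd, chr4:149166061-149166089 (minus), and Srxn1, chr2:152105542-152105570 (plus), the match lies just past the start site and is shown with 10 bases on each side.
Txnrd1: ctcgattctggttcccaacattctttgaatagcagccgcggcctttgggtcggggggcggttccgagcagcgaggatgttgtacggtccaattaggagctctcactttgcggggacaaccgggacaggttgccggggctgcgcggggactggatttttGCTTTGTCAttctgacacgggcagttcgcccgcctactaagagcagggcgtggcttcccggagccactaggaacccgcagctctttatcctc
Abcc4: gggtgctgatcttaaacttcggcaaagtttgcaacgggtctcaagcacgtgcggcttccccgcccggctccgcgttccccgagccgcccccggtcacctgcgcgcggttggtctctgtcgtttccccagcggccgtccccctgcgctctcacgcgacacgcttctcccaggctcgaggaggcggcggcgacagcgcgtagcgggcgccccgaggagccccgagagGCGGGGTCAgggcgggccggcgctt
Prdx1: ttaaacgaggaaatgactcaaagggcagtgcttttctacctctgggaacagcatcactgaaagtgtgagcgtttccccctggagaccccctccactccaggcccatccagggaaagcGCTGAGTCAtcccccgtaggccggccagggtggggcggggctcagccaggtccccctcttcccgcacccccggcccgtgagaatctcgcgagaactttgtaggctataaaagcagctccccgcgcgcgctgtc
Gclm: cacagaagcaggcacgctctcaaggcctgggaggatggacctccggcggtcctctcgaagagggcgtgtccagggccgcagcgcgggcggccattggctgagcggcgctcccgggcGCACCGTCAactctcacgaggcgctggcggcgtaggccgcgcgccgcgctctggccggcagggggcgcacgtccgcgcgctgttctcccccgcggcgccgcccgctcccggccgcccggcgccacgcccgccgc
Pgd: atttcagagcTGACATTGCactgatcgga
Srxn1: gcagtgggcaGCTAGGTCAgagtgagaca
The Prdx1 match, read on the other strand as TGACTCAGC, also contains TGACTCA, the letters of an AP-1 site, and the matches in Txnrd1, Abcc4, Gclm, Pgd and Srxn1 do not. A second Abcc4 window also held a match, and Pgd and Txnrd1 have other windows without one. A match is a run of letters and not a measured binding site, and a window without one says nothing about elements farther away.

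Values are normalised estimated counts, and differences are log2 fold changes (R159 minus vehicle) of value + 1 with their SE; a gene is called lower or higher when limma's Benjamini-Hochberg adjusted p over all 16594 tested genes is under 0.05. R159 libraries held 51.26 to 55.74 M estimated reads and vehicle libraries 65.95 to 76.7 M. Across 11027 coding genes the fold change ran against transcript length (rank correlation, Spearman's rho = -0.498, over genes and not over replicates), so each difference is also given after removal of that trend where the call or its sign changes. R159 replicate 2 stood apart with 973 genes listed at 0, against 202 to 519 in the other libraries. Mitochondrial genes took 10.6%, 13.6% and 8.42% of the summed values in R159 and 7.43%, 5.01% and 5.29% in vehicle, without overlap and highest in R159 replicate 2; the part of this in the results below was not tested. Over the same coding genes, the rho between length and a library's deviation from the mean of all libraries was 0.02, -0.60 and -0.49 for the R159 libraries, against 0.34, 0.47 and 0.50 for the vehicle libraries. Albumin (Alb) and the other 9 hepatocyte markers were detected, with a summed value of 5003464 to 8291674 in R159 and 4022655 to 5962444 in vehicle. They went both ways: Hnf4a was called lower and Tat higher (10% each, against 14.2% and 12.8% of all tested genes). Their log2 fold changes ran from -0.67 to 1.36, with a median of 0.52. With the length trend removed the median was 0.245 and 0 were called. In whole liver, fewer cells of a type and less RNA per cell cannot be told apart.

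In R159 livers 12 of the 35 members fell and 0 rose, with a median log2 fold change of -0.52. Of all tested genes 14.2% were called lower and 12.8% higher, with a median of 0.00; among the members 34.3% were called lower. At an unadjusted limma p under 0.05 there were 16 members lower and 3 higher (21.4% and 20.1% of all tested genes). The fallen genes included the KEAP1 gene itself, the cystine transporter Slc7a11, the reductases Gsr and Txnrd1, the peroxiredoxin repair enzyme Srxn1, the NADPH enzyme Pgd and the efflux pump Abcc4, while Nfe2l2 mRNA and most glutathione transferases were not called. Groups did not overlap for 12 members on the lower side and 3 on the higher side (23.6% and 22.5% of all tested genes, 46.2% together). All 35 passed the filter of a mean value of at least 10, Slc7a11 only through the vehicle libraries, so that its call follows in part from the filter. Without it, 11 of 34 members were lower (32.4%), with a median of -0.49.

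These calls depended on single libraries to different degrees. Pgd, Txnrd1 and Abcc4 were called in each of the 6 fits that left out 1 library. Without vehicle replicate 2 they were the 3 called members (5.54% of all genes were then called lower and 5.51% higher), and without R159 replicate 2 there were 16 lower members and 0 higher (10.8% and 9.54% of all genes), Gclc, Gstm3, Tkt and Ugdh being added. With the length trend removed, 13 members were lower and 0 higher (8.1% and 10.3% of all genes): 11 of the 12 kept their call, Keap1 lost it, and Gsta2 and Gstm3 gained it. Rescaling by the upper quartile gave 8 lower and 1 higher (Txn1) and moved the split over all genes from 2125 higher and 2354 lower to 2506 and 1828.

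**Figure D1:**
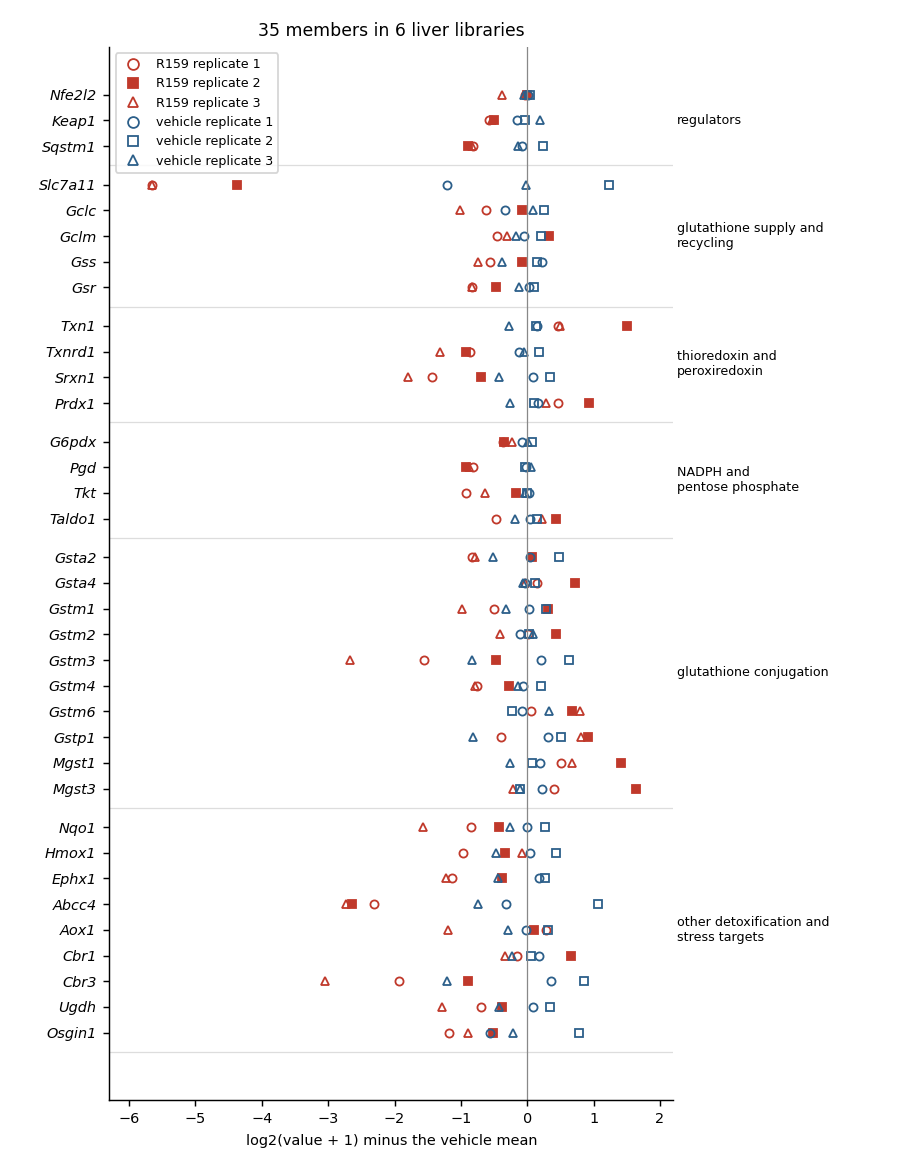
Each row is 1 of the 35 genes, grouped by role, and each symbol 1 library: log2(value + 1) minus the mean of the 3 vehicle libraries (blue: vehicle, red: R159, filled square: R159 replicate 2). Slc7a11 lies farthest to the left in R159, and Abcc4 and replicate 3 of Cbr3 also lie far to the left. In most rows the filled square is the rightmost red symbol.

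Among the regulators, the sensor and the adaptor fell and the factor was not called. Nfe2l2 stood at 6091, 6213 and 4768 in the 3 R159 libraries, numbered in this order throughout, and at 6260, 6411 and 6047 in vehicle (log2 fold change -0.14, SE 0.16, limma adjusted p = 0.523). Its groups overlapped, with R159 replicate 3 the lowest library. Keap1, the adaptor that hands NRF2 to a ubiquitin ligase, was 3038, 3212 and 3138 in R159 against 4088, 4424 and 5192 in vehicle, a fall of 3130 ± 87.4 against 4568 ± 566 (SD, n = 3 each; -0.54, SE 0.15, limma adjusted p = 0.0284). Every R159 library lay below every vehicle library, but the call was lost without any 1 vehicle library or R159 replicate 3 (adjusted p up to 0.115) and with the length trend removed (-0.29, adjusted p = 0.133); Keap1 exons overlap the antisense gene Gm16754. Sqstm1, which encodes p62, was 22067, 20993 and 21706 in R159 against 36559, 45585 and 35119 in vehicle (-0.85, SE 0.18, limma adjusted p = 0.0113). The R159 libraries were close to one another and far below the vehicle libraries, and the call was lost without vehicle replicate 2 (-0.73, adjusted p = 0.0723); Sqstm1 exons overlap the antisense gene Mrnip.

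In glutathione supply, Slc7a11 and Gsr fell, and Gclc, Gclm and Gss were not called, though their fold changes were negative as well. Whether these steps differ from one another was not tested. Slc7a11 is the subunit of system xc- that brings in cystine, the usual limit on glutathione synthesis. Its value was 0, 1.44 and 0 in R159 against 20.9, 117 and 48.7 in vehicle, which corresponds to 1 estimated read in all R159 libraries together and 243 in vehicle. The ratio of vehicle to R159 was 157, with a 95% exact interval of 27.9 to 6223 that covers counting error only. Vehicle replicates themselves spanned 25 to 160 estimated reads, and without vehicle replicate 2 the gene was not called (limma adjusted p = 0.0608, against 0.00578 with all libraries). At 6.73 per kilobase of transcript in vehicle it was also the scarcest member. Gsr, glutathione reductase, was 3053, 3895 and 3047 in R159 against 5511, 5830 and 4962 in vehicle (-0.71, SE 0.16, limma adjusted p = 0.0136). The groups did not overlap, and the call was lost without vehicle replicate 1 or 2 (adjusted p up to 0.0735).

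The enzymes that build glutathione gave overlapping groups. Gclc, the catalytic subunit of glutamate-cysteine ligase, was 19084, 27866 and 14642 in R159 against 23511, 35104 and 31256 in vehicle (-0.58, SE 0.26, limma adjusted p = 0.132). Its modifier subunit Gclm was 9793, 16693 and 10789 against 12986, 15464 and 11948 (-0.15, SE 0.22, adjusted p = 0.647), and with the length trend removed its sign turned (0.31, adjusted p = 0.444). R159 replicate 2 was the highest R159 library for both subunits. Gclm was above all vehicle libraries there, and Gclc was below vehicle replicates 2 and 3. Gss, glutathione synthetase, was 4976, 6922 and 4391 against 8584, 8153 and 5651 (-0.46, SE 0.23, limma adjusted p = 0.153). Gss exons overlap the antisense genes Acss2 and Gssos2, and Gclm exons Gm17494, and whether counting used strand is not given in the sources used here.

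The thioredoxin and peroxiredoxin genes split by enzyme. The reductase and the repair enzyme fell, while their substrates had higher R159 values in all 3 libraries that did not pass the test. Txnrd1, which reduces thioredoxin with NADPH, was 6165, 5937 and 4520 in R159 against 10250, 12688 and 10880 in vehicle, or 5541 ± 892 against 11273 ± 1266 (SD, n = 3 each; -1.03, SE 0.18, limma adjusted p = 0.00548). Srxn1, sulfiredoxin, which restores overoxidised peroxiredoxin, was 2978, 4963 and 2322 against 8543, 10276 and 5997 (-1.31, SE 0.29, limma adjusted p = 0.0134). The highest R159 library lay under the lowest vehicle library for both, and leaving out vehicle replicate 2 took Srxn1 just past the threshold (adjusted p = 0.0513). Thioredoxin itself, Txn1, was 13973, 28607 and 14194 in R159 against 11213, 11088 and 8386 in vehicle (0.81, SE 0.28, limma adjusted p = 0.06). Prdx1, an abundant peroxidase that thioredoxin reduces, was 50823, 70177 and 44470 against 41230, 39222 and 30767 (0.56, SE 0.24, limma adjusted p = 0.108). Both had groups that did not overlap, with R159 replicate 2 the highest library. Their transcripts differ in length, 1051 nt for Txn1 and 2294 nt for Prdx1, and with the length trend removed Txn1 gave 0.20 (adjusted p = 0.511) and Prdx1 0.56 (adjusted p = 0.0991). Of the 50-base stretches of the Prdx1 transcript, 10.9% also occur in other measured genes, among them Gm21399.

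A ratio of a pair of genes within a library does not depend on its scaling factor, though it does depend on the length trend. These pairs were set against each other after their values were seen. Txn1 per Txnrd1 was 2.27, 4.82 and 3.14 in R159 against 1.09, 0.874 and 0.771 in vehicle. Prdx1 per Srxn1 was 17.1, 14.1 and 19.1 in R159 against 4.83, 3.82 and 5.13 in vehicle. The log2 ratios differed by 1.85 and 1.87 between groups. In both pairs each gene already had groups that did not overlap, in opposite directions, so the ratios had to separate. The two-sided exact permutation p = 0.1 for both, the smallest value that 3 against 3 can give, followed from this and adds no support. After removal of the length trend, the difference was 0.98 for Txn1 per Txnrd1 and 1.76 for Prdx1 per Srxn1. For Gclc per Gclm, the third pair tried, the ratios overlapped (1.95, 1.67 and 1.36 against 1.81, 2.27 and 2.62; exact permutation p = 0.2). Benjamini-Hochberg adjustment over the 3 ratios gave 0.15, 0.15 and 0.2, with the same limit for the Txn1 and Prdx1 pairs.

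**Figure D2:**
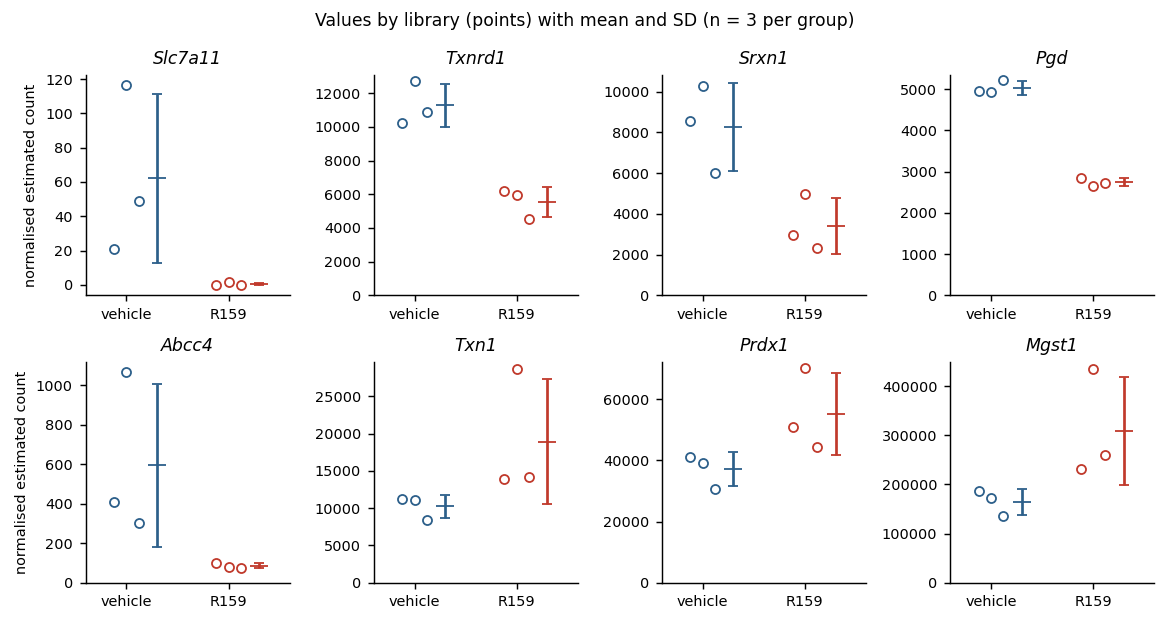
Normalised estimated counts of 8 members, 1 panel each on a linear axis, in the 3 vehicle libraries (blue) and the 3 R159 libraries (red), with mean and SD beside the points. Slc7a11, Txnrd1, Srxn1, Pgd and Abcc4 lie lower in R159 without overlap, and Txn1, Prdx1 and Mgst1 lie higher without overlap, with 1 R159 library above the others.

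Of the 4 pentose phosphate genes, 1 fell (25%, against 14.2% of all tested genes). Pgd, 6-phosphogluconate dehydrogenase, which yields NADPH, was 2844, 2653 and 2723 in R159 against 4946, 4921 and 5225 in vehicle, or 2740 ± 96.6 against 5030 ± 169 (SD, n = 3 each; -0.88, SE 0.13, limma adjusted p = 0.00437). It had the smallest p of all members, and its value hardly moved with the length trend removed (-0.90, adjusted p = 0.00439). Tkt, transketolase, of the non-oxidative branch, was 8011, 13468 and 9772 in R159 against 15559, 15234 and 14936 in vehicle (-0.58, SE 0.20, limma adjusted p = 0.0613). The vehicle libraries were close together and all above R159, and Tkt was called without R159 replicate 2 (adjusted p = 0.0187). G6pdx, the rate-limiting first enzyme, was low for this role, at 310, 310.6 and 339.5 in R159 and 377, 419 and 400 in vehicle (-0.32, SE 0.18, limma adjusted p = 0.225). Its groups did not overlap, though the difference was small; its exons overlap the antisense gene Ikbkg. Taldo1, transaldolase, was 5407, 10185 and 8746 against 7739, 8296 and 6634 (0.06, SE 0.24, limma adjusted p = 0.871), with overlapping groups and a sign that turned with the length trend removed (-0.32, adjusted p = 0.207).

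Of the 10 glutathione conjugation genes, 1 fell (10%, against 14.2% of all tested genes), and their median log2 fold change was 0.14. Most are short transcripts, and after removal of the length trend the median was -0.50 and 3 were lower, so the sign of this group depends on that step. Gstm4, a mu class transferase, was 2630, 3676 and 2552 in R159 against 4241, 5088 and 4038 in vehicle (-0.61, SE 0.19, limma adjusted p = 0.0404). The groups did not overlap, and it stayed called in 1 of the 6 fits that left out a library, the one without R159 replicate 2. Gstm3 spread widely, at 6025, 12801 and 2794 in R159 and 20604, 27492 and 9920 in vehicle (-1.57, SE 0.53, limma adjusted p = 0.0552). Its R159 replicate 2 overlapped vehicle replicate 3, and it was called without R159 replicate 2 and without vehicle replicate 3 (adjusted p down to 0.0231), and with the length trend removed (-1.98, adjusted p = 0.0312). Gsta2, of the alpha class, was 1472, 2770 and 1529 against 2694, 3677 and 1845 (-0.52, SE 0.30, limma adjusted p = 0.23), and -1.30 (adjusted p = 0.0113) with the trend removed. Gstm1, the most abundant mu class gene, was 117731, 205675 and 84425 against 169664, 202794 and 133566 (-0.39, SE 0.36, limma adjusted p = 0.448).

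The other transferases had positive or near-zero fold changes without a call. Mgst1, a membrane transferase of the endoplasmic reticulum and the outer mitochondrial membrane, was 232446, 434696 and 260754 in R159 against 187337, 171657 and 136147 in vehicle (0.86, SE 0.34, limma adjusted p = 0.088; 0.35 and 0.38 with the length trend removed). Its groups did not overlap. Mgst3 was 2342, 5501 and 1536 against 2064, 1645 and 1651 (0.61, SE 0.39, limma adjusted p = 0.27), the excess resting on R159 replicate 2 (0.09 without it). Gstm6 was 4487, 6910 and 7503 against 4071, 3674 and 5412 (0.51, SE 0.23, limma adjusted p = 0.129), and 0.00 with the trend removed. Gstp1, the pi class enzyme, ranged from 41660 to 103266 in R159 and from 31299 to 78132 in vehicle (0.44, SE 0.44, limma adjusted p = 0.475). Gsta4, which conjugates the lipid peroxidation product 4-hydroxynonenal, gave 0.27 (adjusted p = 0.345) and Gstm2 0.01 (adjusted p = 0.979). Gstp1, Gsta4 and Gstm2 turned negative with the trend removed (-0.39, -0.40 and -0.59; limma adjusted p = 0.473, 0.109 and 0.0655). Levels per kilobase of transcript in vehicle were highest for Mgst1 (141428), Gstm1 (130857) and Gstp1 (72066). These families share sequence: 64.2% of the 50-base stretches of Gsta2 and 62.3% of those of Gstp1 occur in other genes (chiefly Gsta1 and Gstp2), and for Gstm3 and Gstm1 the share was 28.8% and 23.1%, so reads of these copies may be divided uncertainly.

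Among the other detoxification and stress genes, 4 of 9 fell (44.4%, against 14.2% of all tested genes). Abcc4, the efflux pump MRP4, which exports bile acids and conjugates across the sinusoidal membrane, was 102, 80.5 and 76 in R159 against 409, 1069 and 303 in vehicle, or 86.1 ± 13.8 against 594 ± 415 (SD, n = 3 each; -2.56, SE 0.43, limma adjusted p = 0.00512). All R159 libraries were low and alike, and vehicle replicate 2 was the highest. Nqo1, the quinone reductase often read as the marker target of NRF2, was 566, 755 and 343 in R159 against 1016, 1225 and 848 in vehicle (-0.95, SE 0.29, limma adjusted p = 0.0385). Its groups did not overlap, and it was called in 1 of the 6 fits that left out a library, the one without R159 replicate 2 (adjusted p up to 0.132). Cbr3, a carbonyl reductase, was 159.3, 331 and 73.5 against 789, 1111 and 264 (-1.96, SE 0.61, limma adjusted p = 0.0431). Ephx1, microsomal epoxide hydrolase, was 18706, 31552 and 17450 against 46199, 49401 and 30137 (-0.91, SE 0.28, limma adjusted p = 0.0424). In both, R159 replicate 2 lay above vehicle replicate 3, and each was called in 2 of the 6 fits that left out a library, those without R159 replicate 2 or without vehicle replicate 3.

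The remaining 5 were not called. Ugdh, which makes UDP-glucuronate for glucuronidation, was 10958, 13688 and 7291 in R159 against 18903, 22540 and 13201 in vehicle (-0.79, SE 0.27, limma adjusted p = 0.0597). Osgin1, an oxidative stress-induced growth inhibitor, was 3645, 5753 and 4415 against 5607, 14160 and 7063 (-0.87, SE 0.32, limma adjusted p = 0.0752). In each, 1 R159 library reached just past the lowest vehicle library. Hmox1, haem oxygenase 1, was 1021, 1593 and 1897 against 2056, 2718 and 1443 (-0.46, SE 0.28, limma adjusted p = 0.249). Aox1, aldehyde oxidase, gave -0.28 (SE 0.35, adjusted p = 0.587) and Cbr1, the other carbonyl reductase, 0.06 (SE 0.26, adjusted p = 0.888), both with overlapping groups and a sign that turned with the length trend removed (0.07 and -0.41, adjusted p = 0.902 and 0.182).

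**Figure D3:**
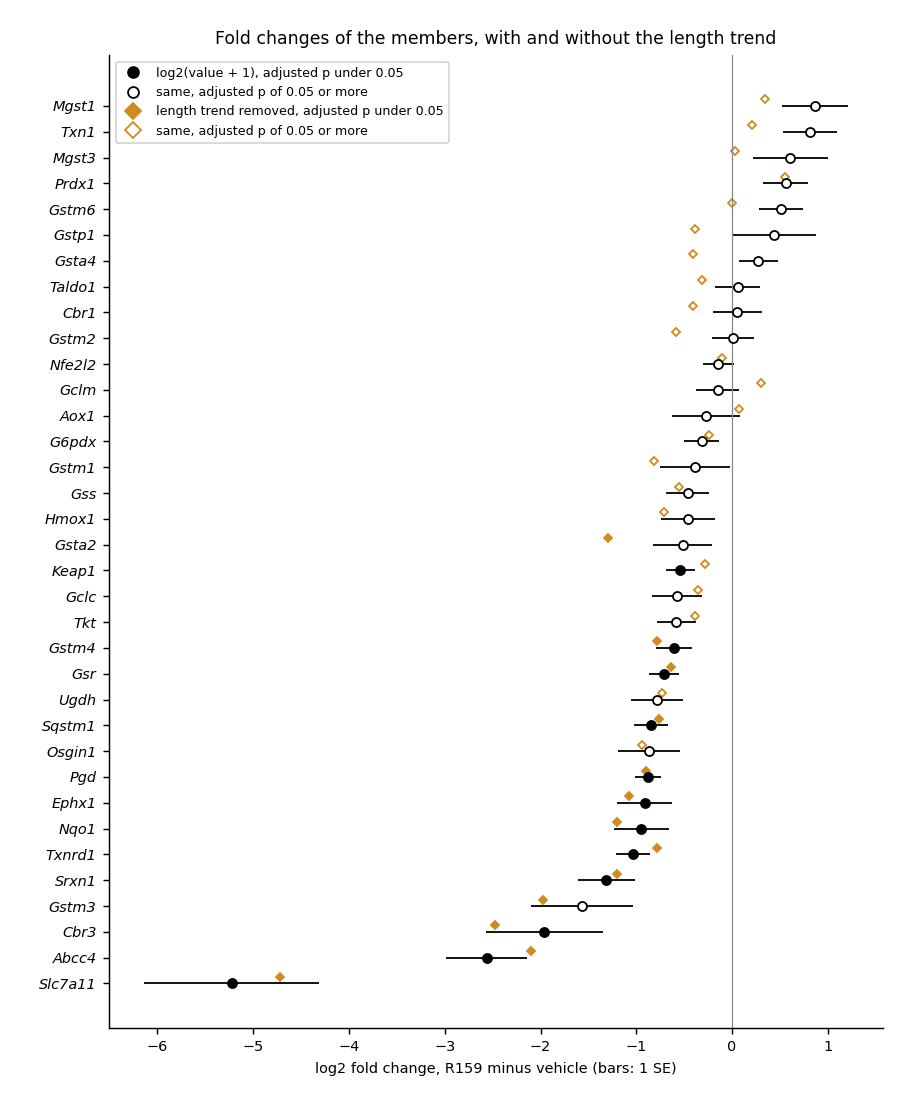
Log2 fold change of each member (black circles, bars 1 SE) in order of size, and the same with the transcript length trend removed (orange diamonds); filled symbols have a limma adjusted p under 0.05. Slc7a11, at -5.23, is farthest from 0, no symbol on the right of 0 is filled, and the orange diamonds of the short transferases lie to the left of their circles.

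Within each group the members tended to move together from library to library. R159 replicate 2 was the highest of the R159 libraries for 27 of 35 members (77.1%), against 33.6% of all tested genes. Vehicle replicate 2 was the highest vehicle library for 24 members (68.6%, against 27% of all genes), and vehicle replicate 3 the lowest for 25 (71.4%, against 34.9%). The median over members of log2(value + 1) minus the vehicle mean was -0.63, -0.18 and -0.79 over the R159 libraries and 0.02, 0.20 and -0.22 over the vehicle libraries. R159 replicate 2 thus lay between vehicle replicate 3 and vehicle replicate 1 on this median. By role it was highest in conjugation (0.56) and lowest in the regulators (-0.50), where the 3 R159 libraries differed little (-0.58, -0.50 and -0.53).

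Transcript length varied with the fold change among the members as among all genes. Members ranged from 821 to 9223 nt, and across them Spearman's rho between length and fold change was -0.51 (n = 35 genes, which share the same 6 libraries). The 12 members called lower had a median length of 2673 nt, with Cbr3 the shortest at 1170 nt, and the 10 members with a fold change above 0 had a median of 1132 nt. Slc7a11 and Abcc4 were the longest transcripts of the 12. Abcc4 kept its call with the trend removed (-2.10, limma adjusted p = 0.0146), as did the short Cbr3 (-2.47, adjusted p = 0.0247).

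**Figure D4:**
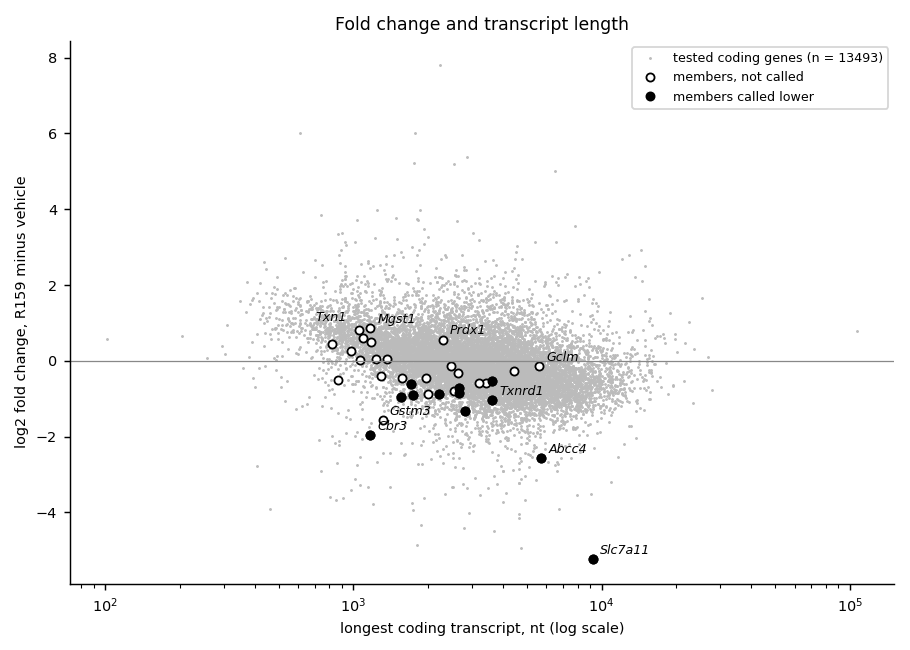
Log2 fold change (vertical axis) against the length of the longest coding transcript (horizontal, log scale) for 13493 tested coding genes (grey) and the 35 members (circles, filled when called lower). The grey cloud slopes downward with length; Cbr3 and Gstm3 lie under its dense part among short transcripts, as do Abcc4 and Slc7a11 among long ones.

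Other genes of the pathway, 140 in 6 lists matched to the roles, were called at close to the shares of all genes (14.2% lower and 12.8% higher). Of 136 tested, 19 were lower (14%) and 16 higher (11.8%), with a median of 0.00. Among regulators of NRF2, 7 of 18 were lower and 1 was higher (median -0.50), and with the length trend removed 3 were lower and 2 higher (median -0.08). Gsk3b, a kinase that marks NRF2 for degradation, was 1407, 1386 and 1423 in R159 against 2449, 2605 and 2773 in vehicle (-0.89, SE 0.14, limma adjusted p = 0.00468). Bach1, a repressor that competes with NRF2 for its sites, was 950, 845 and 854 against 1492, 2133 and 1687 (-0.99, SE 0.18, adjusted p = 0.00635). Both lost their call with the length trend removed (-0.37 and -0.52, limma adjusted p = 0.123 and 0.0531), while Cdkn1a, which encodes the cell cycle inhibitor p21, kept it (-1.43 before and -1.48 after, adjusted p = 0.00948 and 0.0145). Rbx1, a subunit of the KEAP1 ubiquitin ligase, rose (0.81, SE 0.19, limma adjusted p = 0.0167). It stayed called with the trend removed (0.61, limma adjusted p = 0.0306) but not without vehicle replicate 2 or 3 (up to 0.0665).

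In wider glutathione metabolism, 2 of 28 tested genes fell and 3 rose (7.14% and 10.7%, against 14.2% and 12.8% of all tested genes). Gpx2, a glutathione peroxidase, was 1.08, 1.44 and 4.9 in R159 against 12.5, 83.8 and 22.6 in vehicle (-3.27, SE 0.91, limma adjusted p = 0.029), a low gene that passed the filter only through the vehicle libraries. It was called in 3 of the 5 fits that left out a library and still tested it. Oplah, which returns 5-oxoproline to glutamate, had a log2 fold change of -0.54 (limma adjusted p = 0.0267), was called in 2 of the 6 fits that left out a library, and was not called with the length trend removed (-0.23, adjusted p = 0.251). Chac2, which degrades glutathione, Hagh, which releases glutathione from lactoylglutathione, and Cth, which makes cysteine from cystathionine, rose by 0.89, 0.90 and 0.87 (limma adjusted p = 0.00838, 0.00938 and 0.0103). With the length trend removed Cth kept its call (0.74, adjusted p = 0.019), and Chac2 (adjusted p = 0.0564) and Hagh (0.0571) did not.

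Among other thioredoxin system genes, 3 of 22 fell and 3 rose (13.6% each, against 14.2% and 12.8% of all tested genes). Sesn3, a sestrin, had a log2 fold change of -1.43 (limma adjusted p = 0.00709), and the peroxiredoxins Prdx4 and Prdx2 rose by 0.96 and 0.84 (adjusted p = 0.00594 and 0.015). Prdx2 kept its call with the length trend removed (0.62, limma adjusted p = 0.0221) and Prdx4 did not (0.30, adjusted p = 0.151). Without vehicle replicate 2 or 3, Prdx2 was not called (limma adjusted p up to 0.068). Of 18 other NADPH genes tested, 4 fell and 2 rose (22.2% and 11.1%). H6pd, which makes NADPH inside the endoplasmic reticulum, was 13396, 11668 and 16187 in R159 against 22385, 33605 and 25214 in vehicle (-0.97, SE 0.21, limma adjusted p = 0.0121; -0.59 and 0.0619 with the trend removed). The NAD kinases Nadk2 and Nadk fell (log2 fold change -0.65 for Nadk2, limma adjusted p = 0.0169, and -0.57 for Nadk, adjusted p = 0.0241), and neither was called with the trend removed (-0.39 for both, adjusted p = 0.0764 and 0.0578). Fdxr and Pgls rose by 0.73 and 0.60 (limma adjusted p = 0.0203 and 0.0392). With the length trend removed Pgls, of the pentose phosphate pathway, gave 0.00 (adjusted p = 0.995), and Fdxr kept its call.

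Among the wider conjugation genes, of 15 tested, 0 were called lower by limma and 3 rose (0% and 20%, against 14.2% and 12.8% of all tested genes). At an unadjusted limma p under 0.05, 2 were lower and 6 higher (21.4% and 20.1% of all tested genes). Their median log2 fold change was 0.50, and 0.04 with the length trend removed. In that fit 1 was called lower and 1 higher (8.1% and 10.3% of all tested genes). Gstz1, Gstt2 and Gstt1 rose by 0.67, 0.82 and 0.81 (limma adjusted p = 0.0321, 0.0351 and 0.0379). Gstt2 kept its call with the length trend removed (0.81, limma adjusted p = 0.0479), and Gstz1 (0.47, adjusted p = 0.106) and Gstt1 (0.24, adjusted p = 0.365) did not. Of 35 other detoxification and antioxidant genes tested, 3 fell and 4 rose (8.57% and 11.4%, against 14.2% and 12.8% of all tested genes). Abcc3, the efflux pump MRP3, another exporter of the basolateral membrane, was 7607, 8461 and 8100 in R159 against 21106, 21856 and 26809 in vehicle (-1.52, SE 0.16, limma adjusted p = 0.00299; -1.12 and 0.00439 with the trend removed). Aldh3a2, a fatty aldehyde dehydrogenase, and Abcg2, an efflux pump, fell (log2 fold change -0.79 for Aldh3a2, limma adjusted p = 0.0318, and -0.69 for Abcg2, adjusted p = 0.0464). Adh7, an alcohol dehydrogenase, rose by 1.67 (SE 0.30, limma adjusted p = 0.00633), and Akr1c6 and Blvra by 0.71 and 0.67 (adjusted p = 0.0288 and 0.0418). Adh7 kept its call after removal of the trend (1.89, limma adjusted p = 0.00609). Not called then were Akr1c6 (0.36, adjusted p = 0.181), Blvra (0.15, 0.476), Aldh3a2 (-0.62, 0.0671) and Abcg2 (-0.22, 0.591).

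**Figure D5:**
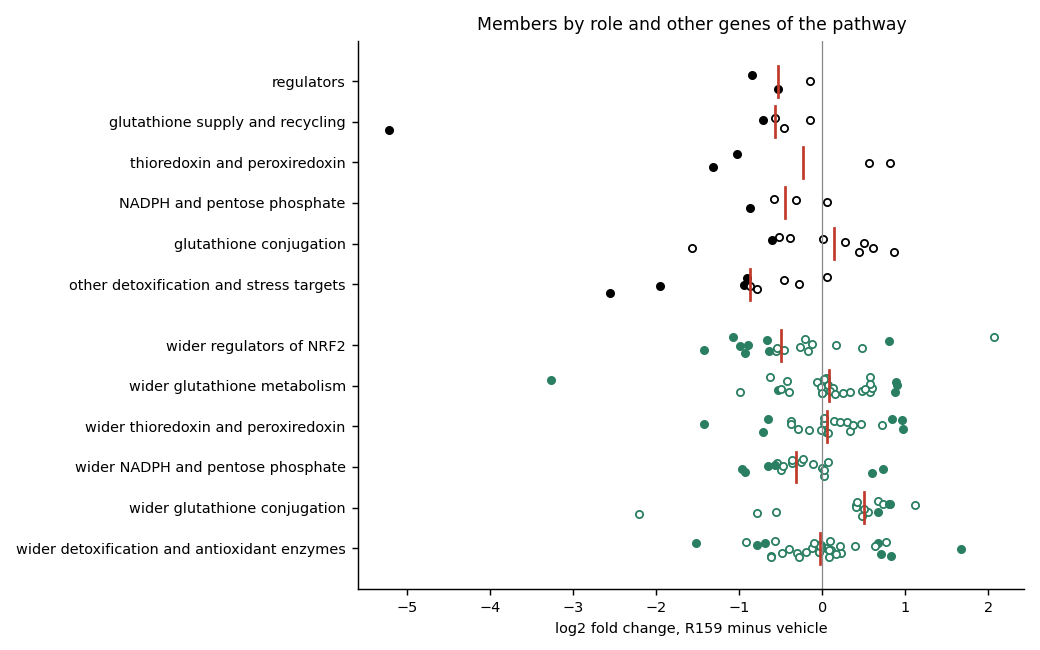
Log2 fold change of each member (black, by role) and of each other tested gene of the pathway (green, 6 lists), with red bars at list medians and filled points for a limma adjusted p under 0.05. Medians of the member roles lie between -0.87 and 0.14, and those of the wider lists between -0.50 and 0.50.

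Markers of other liver cells also differed between the groups, and their part in the results above was not tested. Erythroid markers summed to 40808 to 60039 in R159 and 12957 to 21877 in vehicle, with 5 of 7 called higher; Prdx2 is also abundant in red cells. Of all tested genes, 14.2% were called lower and 12.8% higher. Stellate cell markers had 4 of 8 lower (sums of 11361 to 24510 against 19048 to 34379). Lipid-associated macrophage markers had 2 of 7 lower (4558 to 8569 against 6705 to 18580), and Kupffer cell and macrophage markers 3 of 12 (20848 to 28826 against 26354 to 39790). The latter went both ways: 4 were lower and 2 higher at an unadjusted limma p under 0.05, with log2 fold changes from -1.77 to 3.07. Sums of cholangiocyte markers (1331 to 2505 against 1821 to 2079), sinusoidal endothelial markers (7717 to 10030 against 8050 to 11222) and T and NK cell markers (208 to 535 against 153 to 461) overlapped. Of 6 cholangiocyte markers tested, Krt7 was called higher, and log2 fold changes ran both ways, from -2.71 to 1.32. Of 8 sinusoidal endothelial and 7 T and NK cell markers, 0 were called. Neutrophil marker sums also overlapped (417 to 1029 against 204 to 465), while B and plasma cell markers had 2 of 6 called higher (1420 to 5429 against 935 to 1207). After removal of the trend, 1 erythroid marker was called higher, and 2 stellate, 6 Kupffer cell and macrophage and 4 lipid-associated macrophage markers were called lower. Cholangiocyte, sinusoidal endothelial, and B and plasma cell markers then had 1 called higher each. Of all tested genes, 8.1% were called lower and 10.3% higher in that fit. No measured marker was at 0 in all 6 libraries. Pericentral hepatocyte markers, which mark the zone where many of these detoxification genes are highest, had 0 of 9 lower and 1 higher (490613 to 668230 against 457415 to 653087), and periportal markers 2 lower and 3 higher of 9. With the trend removed, 2 pericentral markers were called higher, and 3 periportal markers lower and 3 higher.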

How the data were processed

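Poly(A) RNA of 6 liver samples was sequenced from strand-selected libraries with 50 bp paired ends (per the labels' protocols). STAR 2.7.8a, the build mm39, cutadapt, FastQC 0.11.9, R 4.2.3 and DESeq2, whose version appears as 3.5, are named without roles in the submitters' processing notes; the counter and annotation were not given in the sources used here. The deposited values are treated as a signal; from the values, they look like fractional estimated gene counts divided by 1 factor per sample, a step that no source used here states. Low values cluster at multiples of 1 step per library, from which the depth was estimated. But among values worth fewer than 200 reads only 67.8% to 76.1% came out whole (tolerance 0.02), so the gene fits used no count model. The exception is the Slc7a11 interval, an exact binomial interval on estimated reads summed by group and rounded. Counting noise is small at this depth except for genes such as Slc7a11.

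Genes with a mean of at least 10 (16594; 2126 fell under it) entered limma 3.58.1 (R 4.3.3) on the log2(value + 1) scale, with the group as the single term and a trended eBayes step; this scale understates changes of low genes. The length trend was a lowess curve (span 0.3) of each library's deviations on log2 length, fitted on coding genes of mean 100 or more with GENCODE M21 lengths (15854 tested genes had one; another build, used for lengths, shared stretches and overlaps only). Each member is described by role; of the other pathway lists up to 3 called genes of smallest p per direction are named. The members and lists were chosen with earlier results of these data known. Other settings tried were TMM (written out by hand) and upper-quartile scaling, pseudocounts of 0.5 and 8, a filter at a mean of 50 or none, other eBayes settings, weighting of samples, the replicate number as a block, the removal of 1 library at a time, and a threshold of 0.1. Nnt, listed on more than 1 row, was left out of its list. The fit was run on simulated data with the same spread setting for all genes. Apart from a planted length trend, no effect was shared within a library, so that run cannot cover such effects.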

Additional observations from a re-analysis of the deposited data

How the results depend on the processing

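The 12 lower members became 17 with sample weights, 16 at a threshold of 0.1, 7 by eBayes without trend, and 3 to 16 when 1 library was left out: 7 without R159 replicate 3 or vehicle replicate 1, and 3 without vehicle replicate 2. Calls over all 16594 tested genes moved as well. Sample weights gave 2965 lower and 2614 higher, and eBayes without trend 1443 and 1642, against 2354 and 2125 as reported. The count over all genes at a threshold of 0.1 is not given here. Higher members, 0 as reported, became 1 by upper-quartile rescaling (Txn1), by sample weights (Gstm6) and in the replicate block (Txn1), 2 at a threshold of 0.1, and 0 to 2 when 1 library was left out. Calls over all genes, 4479 as reported, ranged from 1841 to 5425 when 1 library was left out (2500, 1841 and 2183 without vehicle replicates 1, 2 and 3). TMM factors, pseudocounts of 0.5 and 8, no filter and robust eBayes changed no call of a member. A mean of 50 or more removed Slc7a11 from the test.

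Signs turned for members that were not called. With the length trend removed these were Gclm (0.306), Taldo1 (-0.317), Gsta4 (-0.405), Gstm2 (-0.591), Gstp1 (-0.39), Aox1 (0.073) and Cbr1 (-0.408), and with sample weights Gstm2 (-0.121) and Cbr1 (-0.09). When 1 library was left out, ranges crossed 0 for Gclm (-0.381 to 0.003), Taldo1 (-0.13 to 0.327), Gstm2 (-0.204 to 0.221), Aox1 (-0.551 to 0.186) and Cbr1 (-0.245 to 0.251). For these the cause was not tested.

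Same-numbered libraries did not deviate together (correlations of -0.0981, 0.0314 and 0.108), so the numbers are not taken to pair the samples. A fit with the replicate block gave 14 lower members and 1 higher, and 3945 calls over all genes.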
